A study of Mus musculus with 2 samples.

Results

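A set of 50 genes of the mouse proteasome, the large protease that takes apart proteins tagged with ubiquitin, was followed at single-cell resolution in a healing tendon injury with and without radiation. They are the symbols that begin with Psm, a letter from a to g and a number, and that had at least 20 unique molecular identifiers (UMIs, each standing for 1 captured RNA molecule) over both libraries. All 50 symbols of that form in a feature list of 32285 genes met the minimum. Of these, 5 are the interferon-inducible genes Psmb8, Psmb9, Psmb10, Psme1 and Psme2, called inducible genes here, and 45 are the other members. Among the 45, 31 encode the constitutive structural subunits, and the remainder comprise assembly chaperones, other activators, an inhibitor, subunits known from testis and thymus, and Psmc3ip and Psme2b, which the pattern takes although neither is a constitutive subunit.

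The control library came from male C57BL/6 mice aged 8 to 10 weeks with a burn of 30% of the body surface and transection of the left Achilles tendon, a model of traumatic heterotopic ossification, and no radiation. The irradiated library came from mice with the same burn and tenotomy that were also exposed once to 7 Gy, delivered via a 2 cm collimator. Unsorted cells of the injury site were taken 7 days after injury in both groups, after digestion with collagenase and dispase, with viability above 85%. Per the labels, arms of 10 mice each had radiation 1 or 3 days after surgery. The series text points to day 3, and how many mice make up a library is not given. With 1 library per group, treatment and library cannot be told apart, no test between groups was possible, and every interval below covers counting error only.

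The proteasome has a barrel-shaped core built of alpha and beta rings, in which Psmb5, Psmb6 and Psmb7 encode the catalytic beta subunits. A regulatory cap, with a ring of ATPases (Psmc genes) and a lid (Psmd genes), recognises and unfolds tagged proteins. In cells exposed to interferon and in many immune cells, Psmb8, Psmb9 and Psmb10 take the places of Psmb5, Psmb6 and Psmb7 in newly built cores, which are then called immunoproteasomes. Psme1 and Psme2 encode an activator ring that opens the core without ATP, and the peptides made feed the MHC class I pathway.

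The promoters of a pair of inducible and a pair of constitutive catalytic genes are shown because the values below separate these pairs. Each sequence ends at the base before the RefSeq transcription start (GRCm38.p6), reads 5′ to 3′ on the gene's strand, and has in capitals the match to a motif searched on both strands. The windows are chr17:34197945-34198194 (plus strand) for Psmb8, chr17:34187331-34187555 (minus strand) for Psmb9, chr14:54617996-54618245 (minus strand) for Psmb5 and chr11:70525107-70525356 (plus strand) for Psmb6.
Psmb8: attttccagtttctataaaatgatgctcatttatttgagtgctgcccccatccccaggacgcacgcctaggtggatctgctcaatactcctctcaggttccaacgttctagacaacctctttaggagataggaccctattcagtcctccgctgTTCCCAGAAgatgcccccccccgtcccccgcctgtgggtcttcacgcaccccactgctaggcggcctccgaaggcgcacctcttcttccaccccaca
Psmb9: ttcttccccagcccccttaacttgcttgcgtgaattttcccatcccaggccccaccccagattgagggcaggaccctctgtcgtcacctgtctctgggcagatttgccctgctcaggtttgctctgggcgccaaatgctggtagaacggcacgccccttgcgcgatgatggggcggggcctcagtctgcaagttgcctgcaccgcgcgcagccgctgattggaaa
Psmb5: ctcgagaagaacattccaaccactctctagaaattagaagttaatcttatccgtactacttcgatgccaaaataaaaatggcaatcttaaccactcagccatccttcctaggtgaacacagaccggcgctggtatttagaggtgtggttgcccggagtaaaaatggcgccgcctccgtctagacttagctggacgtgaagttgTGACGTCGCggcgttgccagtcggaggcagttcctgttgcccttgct
Psmb6: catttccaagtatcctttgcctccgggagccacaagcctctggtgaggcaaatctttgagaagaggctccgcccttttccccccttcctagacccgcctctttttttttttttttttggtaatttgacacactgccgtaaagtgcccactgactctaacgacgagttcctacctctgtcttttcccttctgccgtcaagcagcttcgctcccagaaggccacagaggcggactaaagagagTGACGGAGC
The Psmb9 window holds the 225 bases between its start and the start of Tap1, a peptide transporter gene read the other way.

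In the Psmb8 promoter the capitals mark TTCCCAGAA, from 97 to 89 bases before the start, a match to TTCNNNGAA, the form bound by STAT dimers. This motif reads the same on both strands and occurred in 8.30% of all 32851 promoter windows of 300 bases (250 before to 50 after a start). In Psmb5 and Psmb6 the capitals mark TGACGTCGC and TGACGGAGC, matches to TGACNNNGC, the core of the antioxidant response element, which 12.4% of all windows held. The core of the interferon-stimulated response element, GAAA repeated after any 2 bases, was in 3.44% of windows. Over the windows of the 5 inducible genes, TTCNNNGAA was found in 1 (Psmb8), the interferon element core in 1 (Psme1, as GAAAGCGAAA on the opposite strand, 10 to 19 bases after the start) and TGACNNNGC in 0. Among 25 structural subunits with a window the counts were 1 (Psmd2), 2 (Psmb3 and Psmd4) and 4 (Psmb5, Psmb6, Psmc6 and Psmd12). These are letter matches in a fixed window and do not show binding. Windows were found for 42 of the 50 members, and Psmb7, Psmc3, Psmb2, Psmd7, Psmd3, Psmb1, Psma8 and Psmg2 had none.

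In the GENCODE M21 models of the same genome, Psmb8 spans positions 34197721 to 34201454 of chromosome 17 and Psmb9 spans 34181987 to 34187764, so their outermost starts lie upstream of the RefSeq starts used above. Psmb10 lies on chromosome 8 (105935735 to 105938444), and Psme1 (55578123 to 55581529) and Psme2 (55587441 to 55591113) lie close together on chromosome 14. Exons of Psmb9 overlap those of Tap1, exons of Psmb8 overlap those of Gm20496, and exons of Psme1 overlap those of Emc9, each on the opposite strand. How the counting handled strand is not given in the sources used here, so reads in these overlaps are uncertain.

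Of 11369 control and 8302 irradiated barcodes, 8711 and 7116 cells were kept, with a median of 13251 and 10139 UMIs, and the libraries shared 21 barcodes among kept cells. Scrublet marked 5.73% of control and 1.03% of irradiated cells as doublets. Joint clustering gave 37 clusters, and 9 marker-defined classes had at least 100 cells in each library. Their control and irradiated cell numbers were 2328 and 651 mesenchymal-like, 1721 and 2397 macrophage/monocyte-like, 834 and 1257 neutrophil-like, 2105 and 1271 keratinocyte-like, and 500 and 317 endothelial-like. The smaller classes were dendritic-like with 222 and 218 cells, T/NK-like with 143 and 258, pericyte/smooth-muscle-like with 274 and 181, and Schwann-like with 101 and 133. Levels are UMIs per 1000000 UMIs of the class (CPM), and a value given as log2 is the irradiated over the control level. Classes with fewer cells appear only where named. A gene is called past the rule of size when it differed at least 1.5-fold, its 95% Poisson interval left out equality, and it had at least 20 UMIs in the class.

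Each class had its own inducible level, and the order of the classes was wide while the constitutive level was narrow. In the control library the 5 inducible genes together reached 1177 CPM in dendritic-like cells, 803 in T/NK-like cells and 559 in macrophage/monocyte-like cells. They stood at 365 CPM in endothelial-like and 304 in pericyte/smooth-muscle-like cells, at 231 in neutrophil-like cells, and at 206, 202 and 155 in Schwann-like, keratinocyte-like and mesenchymal-like cells. Of neighbours in this order, neutrophil-like with Schwann-like and Schwann-like with keratinocyte-like cells had overlapping intervals. In the irradiated library the same genes reached 1568 CPM in dendritic-like, 1137 in T/NK-like, 887 in macrophage/monocyte-like, 542 in endothelial-like and 506 in pericyte/smooth-muscle-like cells, this last pair with overlapping intervals. Schwann-like cells followed at 356 CPM, mesenchymal-like cells at 291, keratinocyte-like cells at 264 and neutrophil-like cells at 251, and of these 4 only the keratinocyte-like and neutrophil-like intervals overlapped. The genes that made up the sum differed between classes. The activator genes Psme2 and Psme1 held most of it in control keratinocyte-like (106 and 61.1 CPM) and mesenchymal-like cells (65.7 and 44.7 CPM). In control dendritic-like cells Psmb8 had the highest level of the 5, 417 CPM.

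The 31 structural subunits together were at 3634 to 5460 CPM in the control library and 3445 to 4929 CPM in the irradiated library in all classes except the neutrophil-like one. Neutrophil-like cells held 1560 CPM without and 1038 CPM with radiation. Keratinocyte-like cells had the highest constitutive sum of these classes in both libraries.

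**Figure D1:**
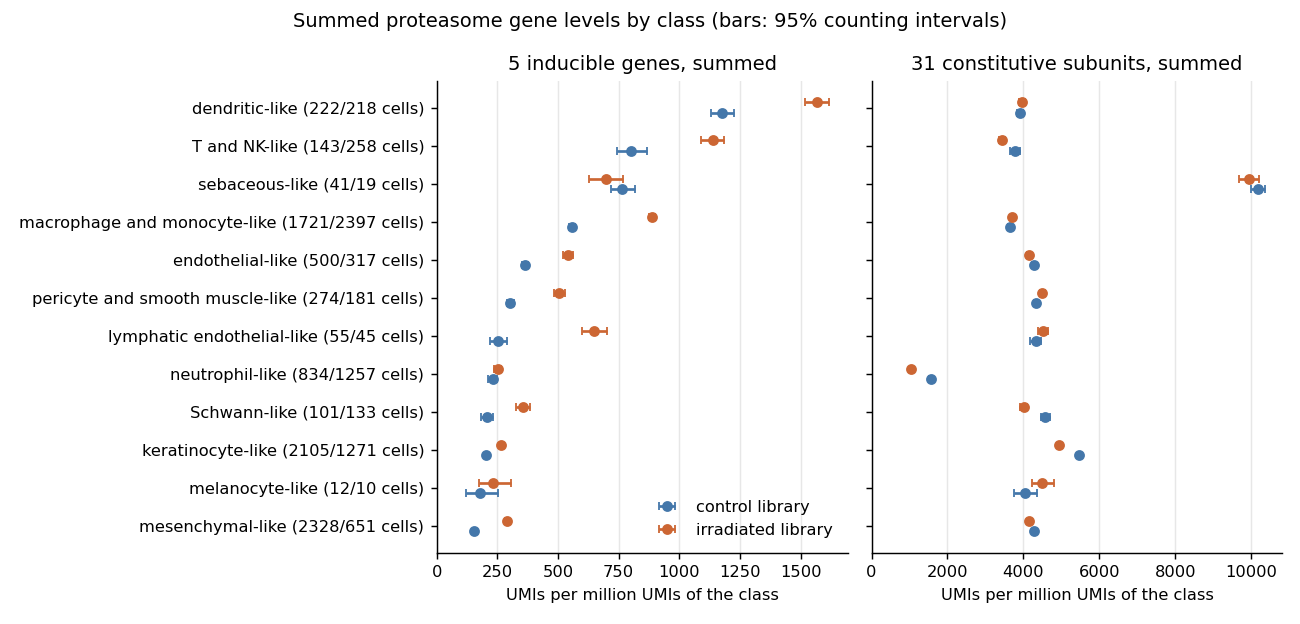
Summed levels of the 5 inducible genes and of the 31 structural constitutive subunits in each named class, also those with under 100 cells in a library, in CPM, with 95% Poisson intervals as bars, control and irradiated libraries side by side. The inducible sum runs from 155 in control mesenchymal-like cells to 1568 in irradiated dendritic-like cells, and the neutrophil-like constitutive sum lies below all others.

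The inducible sum was higher in the irradiated library in 8 classes with an interval above equality. It went from 155 to 291 CPM in mesenchymal-like cells, a 1.88-fold difference (log2 0.91, interval 0.86 to 0.96). The log2 ratio was 0.79 (0.58 to 1.00) in Schwann-like, 0.73 (0.63 to 0.84) in pericyte/smooth-muscle-like, 0.66 (0.63 to 0.70) in macrophage/monocyte-like and 0.57 (0.50 to 0.64) in endothelial-like cells. It was 0.50 (0.38 to 0.63) in T/NK-like, 0.41 (0.34 to 0.49) in dendritic-like and 0.38 (0.34 to 0.42) in keratinocyte-like cells. In neutrophil-like cells the ratio was 0.12 (-0.02 to 0.26), an interval that includes equality.

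Against the structural subunits of the same cells, a ratio that needs no scaling, the inducible genes gained in all 9 classes. There were 3.62 inducible UMIs per 100 constitutive UMIs in control and 7.02 in irradiated mesenchymal-like cells (log2 0.96, 0.91 to 1.01). The same measure went from 4.49 to 8.88 in Schwann-like, from 7.02 to 11.2 in pericyte/smooth-muscle-like, from 8.53 to 13.1 in endothelial-like and from 3.71 to 5.36 in keratinocyte-like cells. In leukocyte classes it went from 15.4 to 24.0 in macrophage/monocyte-like, from 21.2 to 33.0 in T/NK-like and from 30.1 to 39.5 in dendritic-like cells. The neutrophil-like ratio, 14.8 to 24.2 (log2 0.71, 0.56 to 0.86), combined a near-equal inducible sum with a lower constitutive one.

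Leukocyte genes moved with several of these results. The summed level of 11 leukocyte genes, among them Ptprc and Lyz2, was 191 CPM in control and 580 CPM in irradiated mesenchymal-like cells, with 11 of 11 genes above control. It went from 254 to 609 CPM in endothelial-like cells, from 239 to 768 in pericyte/smooth-muscle-like cells and from 159 to 934 in Schwann-like cells, and 1 of the 11 was at 0 in the control Schwann-like cells. In keratinocyte-like cells it went from 567 to 456 CPM with 8 of 11 genes above control, while the summed level of 14 macrophage and monocyte markers went from 1379 to 2245 CPM, 12 of them above control. The part of these markers in the results was not tested beyond the alternative that follows. Without cells holding a UMI of Ptprc, Tyrobp, Fcer1g, Laptm5 or Coro1a, the inducible log2 ratio was 0.89 in mesenchymal-like cells (1298 control and 373 irradiated cells left) and 0.70 in endothelial-like cells. In Schwann-like cells it was 0.23 without them (77 and 86 cells left), and 0 of the 5 inducible genes stayed past the rule of size.

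Psmb8 and Psmb9 had the widest differences among the inducible genes in 6 of the 9 classes, all but the dendritic-like, T/NK-like and neutrophil-like ones. In macrophage/monocyte-like cells the lead was slight, with log2 ratios of 0.73 for both beside 0.71 for Psme1. Within clusters 0, 2, 9 and 23 of that class Psme1 had the highest ratio (0.40, 0.53, 0.12 and 0.51), but not in clusters 15 and 21. Psmb8, the inducible counterpart of Psmb5, was at 15.6 CPM in control and 58.8 CPM in irradiated mesenchymal-like cells, 3.76-fold higher (log2 1.91, 1.78 to 2.04). Within mesenchymal-like clusters 3, 4 and 8 its log2 ratio was lower than that, at 1.43, 1.58 and 1.30, and in cluster 14 it was 3.11. In keratinocyte-like cells Psmb8 went from 8.74 to 27.9 CPM, 3.19-fold higher (log2 1.67, 1.52 to 1.83). Of the 9 classes, the mesenchymal-like and keratinocyte-like ones had the lowest Psmb8 levels in the control library. It was also past the rule of size in Schwann-like (32.9 to 94.5 CPM, log2 1.52), pericyte/smooth-muscle-like (50.6 to 112 CPM, 1.14), macrophage/monocyte-like (154 to 256 CPM, 0.73) and endothelial-like cells (88.7 to 144 CPM, 0.70). The log2 ratio was 0.47 in T/NK-like, 0.43 in neutrophil-like and 0.34 in dendritic-like cells, where Psmb8 stood at 417 CPM in the control library already.

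Psmb9, the counterpart of Psmb6, was at 4.99 CPM in control and 20.3 CPM in irradiated mesenchymal-like cells, 4.08-fold higher (log2 2.03, 1.80 to 2.25). Within mesenchymal-like clusters 3, 4 and 8 its log2 ratio was 1.62, 1.40 and 1.18, and in cluster 14 it was 3.15. In keratinocyte-like cells Psmb9 was at 5.98 and 19.3 CPM (log2 1.69). Schwann-like cells had a log2 ratio of 1.97, from 8 control and 41 irradiated UMIs, with an interval from 0.86 to 3.27. Pericyte/smooth-muscle-like cells went from 18.0 to 40.9 CPM (1.18), endothelial-like cells from 40.9 to 77.6 (0.93), macrophage/monocyte-like cells from 80.5 to 133 (0.73) and T/NK-like cells from 97.8 to 154 (0.66). Dendritic-like cells held 197 and 242 CPM, a ratio of 0.30 within the rule. In neutrophil-like cells Psmb9 was at 48.4 CPM in control and 38.5 in irradiated cells (log2 -0.33, -0.66 to 0.00), also within it. Free RNA in droplets can add UMIs to cells that lack a transcript. Sebaceous-like cells, with the lowest level of both genes, had 5.69 CPM of Psmb8 and 3.25 CPM of Psmb9 in the control library. The Psmb9 interval, 0.885 to 8.32, takes in the control mesenchymal-like, keratinocyte-like and Schwann-like levels of Psmb9. The Psmb8 interval, 2.29 to 11.7, takes in the control keratinocyte-like level of Psmb8.

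Psmb10, the counterpart of Psmb7, followed a different order of classes. It was past the rule of size in mesenchymal-like (23.6 to 40.6 CPM, log2 0.78, 0.65 to 0.92), pericyte/smooth-muscle-like (59.2 to 95.2 CPM, 0.69) and Schwann-like cells (31.3 to 53.7 CPM, 0.78). Among the large mesenchymal-like clusters its log2 ratio ran from 0.06 (-0.35 to 0.45, cluster 3) to 1.19 (cluster 14). The Schwann-like value was -0.23 without cells holding a leukocyte UMI. In keratinocyte-like cells, where Psmb8 and Psmb9 were 3.19-fold and 3.23-fold higher, Psmb10 was at 20.8 and 21.9 CPM, with a log2 ratio of 0.08 and an interval from -0.05 to 0.21. Its keratinocyte-like clusters differed, at 0.48 (0.29 to 0.68) in cluster 6, 0.50 in cluster 7, 0.19 in cluster 12 and 0.98 (0.09 to 1.96) in cluster 18. In clusters 10 and 17 the ratio was -0.30 (-0.71 to 0.11) and -0.19 (-0.60 to 0.20). T/NK-like cells gave 0.07 (-0.31 to 0.47), macrophage/monocyte-like cells 0.51, dendritic-like cells 0.36 and endothelial-like cells 0.24. Neutrophil-like cells were the only class with Psmb10 past the rule in the lower direction, at 25.4 CPM in control and 15.7 CPM in irradiated cells (63 and 89 UMIs; log2 -0.70, -1.18 to -0.21). Without cluster 1, which held most control neutrophil-like cells and 61 of the 63 control UMIs, that ratio was 1.61 (-0.31 to 4.69).

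Psme1 and Psme2, which encode the alpha and beta subunits of the activator ring, moved by similar amounts within a class. Psme1 went from 44.7 to 67.5 CPM (log2 0.60, 0.50 to 0.70) and Psme2 from 65.7 to 103 CPM (0.65, 0.57 to 0.73) in mesenchymal-like cells. In dendritic-like cells their ratios were 0.51 (230 to 328 CPM) and 0.55 (242 to 353 CPM), and in T/NK-like cells 0.61 and 0.54. Keratinocyte-like cells showed 0.30 for Psme1 and 0.18 for Psme2. In neutrophil-like cells Psme1 was at 56.4 and 55.9 CPM (-0.01) and Psme2 at 45.1 and 66.1 CPM (0.55, 0.24 to 0.87), so there the ratios of the partners differed.

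Counted by the rule of size, 5 of the 5 inducible genes were higher in irradiated mesenchymal-like cells, where 12.9% of all genes tested were higher and 6.85% lower. The count was 4 in pericyte/smooth-muscle-like cells (background 7.85% higher, 6.63% lower), 3 in Schwann-like cells (7.28% and 7.58%) and 3 in macrophage/monocyte-like cells (6.69% and 11.4%). It was 2 in each of the endothelial-like (9.2% and 3.64%), T/NK-like (5.96% and 8.06%) and keratinocyte-like classes (7.41% and 7.2%). No inducible gene passed it in the higher direction in dendritic-like cells (6.13% and 5.89%) or neutrophil-like cells (5.03% and 24.4%). The inducible median log2 ratio was 0.78 in mesenchymal-like and -0.01 in neutrophil-like cells, beside medians of all genes of -0.02 and -0.34. When the clusters of a class had the same weight in both libraries, the count was 2 in mesenchymal-like, 0 in macrophage/monocyte-like and 0 in T/NK-like cells.

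**Figure D2:**
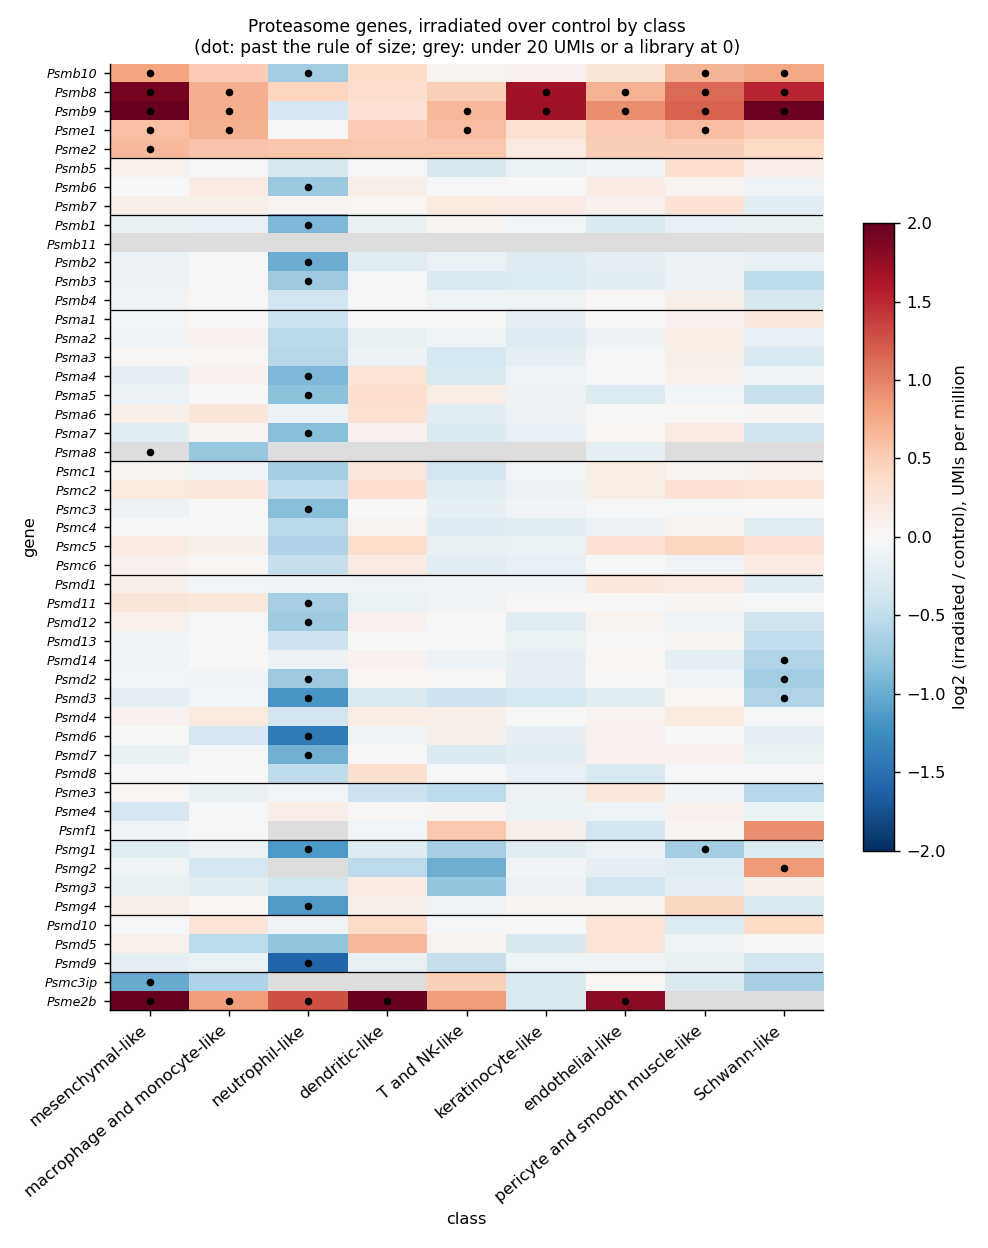
Log2 ratio of the irradiated over the control level of every member with at least 20 UMIs in a class, by gene (rows, ordered by role) and class (columns), with dots for genes past the rule of size. Psmb9 is at 2.03 in mesenchymal-like cells. Psme2b, an uncertain copy of Psme2, reaches 2.27 in dendritic-like cells (4 control and 23 irradiated UMIs). The neutrophil-like column is low over most constitutive rows.

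The constitutive catalytic genes stayed close to their control levels. Psmb5 was at 141 and 151 CPM, Psmb6 at 169 and 169, and Psmb7 at 67.1 and 72.6 in control and irradiated mesenchymal-like cells. Over the 9 classes their log2 ratios lay between -0.32 and 0.33 with 1 exception, Psmb6 in neutrophil-like cells (50.8 to 30.4 CPM, log2 -0.74). Among the 31 structural subunits, 0 passed the rule of size in either direction in mesenchymal-like, macrophage/monocyte-like, dendritic-like, T/NK-like, keratinocyte-like, endothelial-like and pericyte/smooth-muscle-like cells. Psma7, a subunit of the alpha ring with the highest level of all members (294 CPM over all kept cells), was at 314 and 269 CPM in mesenchymal-like cells.

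By role, medians of the members were near 0 in mesenchymal-like cells. They were -0.10 for the alpha ring, -0.12 for the non-catalytic beta genes, 0.08 for the base ATPases, -0.04 for the non-ATPase base and lid genes and -0.12 for the core assembly chaperones. Over all 45 other members the median was between -0.16 and 0.05 in the 8 classes other than the neutrophil-like one. In Schwann-like cells Psmd2 (169 to 104 CPM, log2 -0.70), Psmd14, the lid deubiquitinase (-0.60), and Psmd3 (-0.60) were lower by the rule. These are 3 of 31 structural subunits, beside 7.58% of all genes lower in that class, and Psmd3 was at 0.37 (-1.36 to 2.45) without cluster 25. Psmg2, a core assembly chaperone, was higher there (16.8 to 30.3 CPM, log2 0.85, 22 and 52 UMIs), and its partner Psmg1 was lower in pericyte/smooth-muscle-like cells (35.1 to 21.8 CPM, log2 -0.69).

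Neutrophil-like cells stood apart in the constitutive genes. Of 40 other members with enough UMIs, 17 were lower by the rule of size and 1 higher, where 24.4% of all genes tested were lower, with a median log2 ratio of -0.58 beside -0.34 for all genes of the class. The widest were Psmd9, a base chaperone (14.9 to 4.92 CPM, log2 -1.60), Psmd6, a lid subunit (17.3 to 6.51 CPM, -1.41), and Psmd3 (18.1 to 8.09 CPM, -1.16). Without cluster 1 Psmd3 was at 0.12 (-1.56 to 2.47). By role, 6 of 11 non-ATPase base and lid genes, 3 of 7 alpha genes, 3 of 4 non-catalytic beta genes and 1 of 6 ATPase genes were lower. Neutrophil-like cells were shallow, with medians of 2107 and 3130 UMIs, and red cell genes in them summed to 34.7 CPM in control and 903 CPM in irradiated cells. The summed level of 12 mesenchymal markers in them went from 838 to 177 CPM (0 of 12 above control) and that of 15 keratinocyte markers from 1797 to 656 CPM (1 of 15 above), along with the constitutive genes. The part of these markers in the result was not tested. Cluster 1 held 83.1% of control and 40.9% of irradiated neutrophil-like cells, with a constitutive log2 ratio of -0.54 (-0.62 to -0.46), and cluster 11, led by Ccl3 and Ccl4, had -0.01 (-0.15 to 0.14). With clusters weighted alike 9 other members were lower, and leaving out 1 cluster gave 6 (without cluster 1), 26 (without cluster 11) and 9 (without cluster 20). Scaled by the median gene ratio of the class, 6 of the other members were lower and 2 inducible genes were higher.

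The share of inducible UMIs within each catalytic pair compares each gene with the subunit it replaces, and capture may differ between the genes of a pair, so it is not a share of protein. Over the 3 pairs together the inducible share was 10.5% (exact Clopper-Pearson interval 10.1 to 10.9) in control and 23.3% (22.5 to 24.2) in irradiated mesenchymal-like cells. It went from 6.6% to 12.3% in keratinocyte-like, from 15.4% to 31.4% in Schwann-like, from 23.8% to 34.1% in pericyte/smooth-muscle-like and from 35.6% to 45.4% in endothelial-like cells. Leukocyte classes were higher in both libraries, at 48.3% and 58.6% in macrophage/monocyte-like, 58.9% and 67.6% in T/NK-like and 67.1% and 71.2% in dendritic-like cells. Neutrophil-like cells had 44.8% and 50.7%, with intervals of 41.1 to 48.5 and 48.1 to 53.3.

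The pairs differed in how far they moved. For Psmb8 with Psmb5 the share in mesenchymal-like cells went from 9.97% to 28.0%, for Psmb9 with Psmb6 from 2.87% to 10.7% and for Psmb10 with Psmb7 from 26.0% to 35.9%. In keratinocyte-like cells the same pairs went from 3.78% to 12.0%, from 3.09% to 9.40% and from 18.4% to 17.6%, and only the intervals of the Psmb10 pair overlapped. Neutrophil-like cells had 43.4% and 56.4% for the Psmb8 pair but 41.4% and 29.6% for the Psmb10 pair, and the latter intervals overlapped (33.5 to 49.7 and 24.5 to 35.1).

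**Figure D3:**
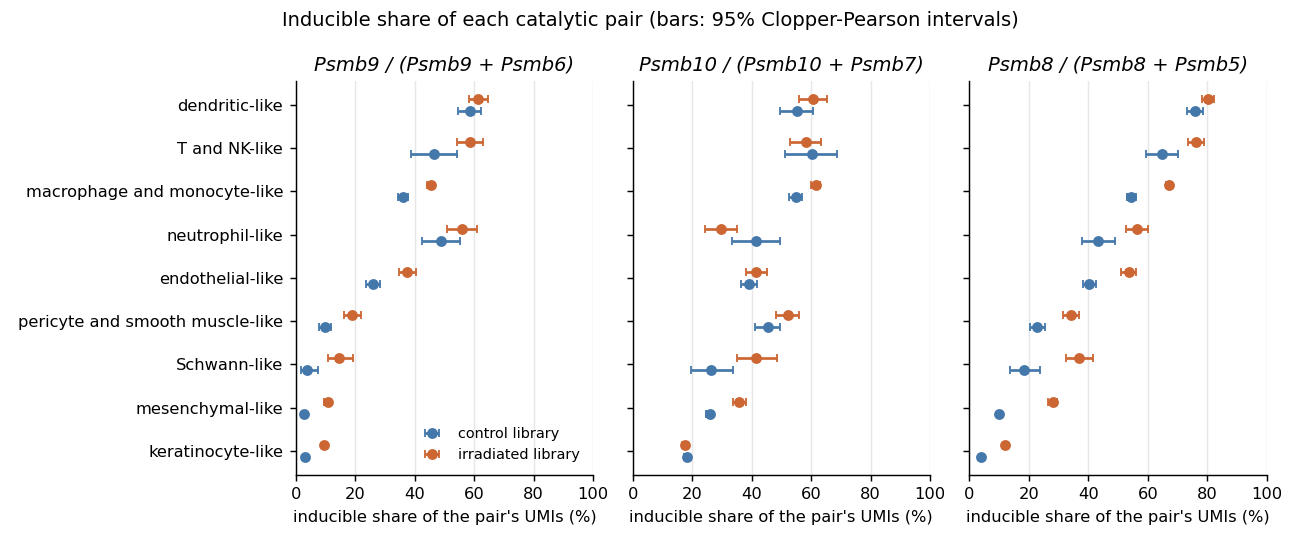
Share of inducible UMIs in each catalytic pair, in percent, by class and library, with 95% Clopper-Pearson intervals as bars and 1 panel per pair. The Psmb8 panel shows mesenchymal-like cells at 9.97% in control and 28.0% in irradiated cells and dendritic-like cells at 75.9% and 80.2%.

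Different clusters held most of some classes in the 2 libraries, so the inducible sum was also taken within clusters. Mesenchymal-like cluster 8, led by Col1a2 and Dcn, had 331 cells in each library, which were 14.2% of control but 50.8% of irradiated cells of the class. Its inducible sum went from 228 to 375 CPM (log2 0.72, 0.62 to 0.81), the highest level of the 4 large clusters in each library. The inducible share of its 3 catalytic pairs, 24.2% and 37.8%, was also the highest of these clusters. Cluster 14, led by the tendon-associated gene Thbs4 (361 and 108 cells), went from 108 to 252 CPM (1.23, 1.10 to 1.35), with Psmb8 at 4.79 and 41.4 CPM (3.11, 2.63 to 3.61). That control Psmb8 level lies within the control sebaceous-like interval given above. Clusters 3 and 4, which held 35.9% and 33.3% of control but 9.98% and 17.8% of irradiated mesenchymal-like cells, had ratios of 0.46 and 0.66. The mesenchymal-like inducible sum was thus higher in the irradiated library in each of its 4 large clusters, by amounts from 0.46 to 1.23.

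Macrophage/monocyte-like clusters were more uneven. Cluster 2, led by Pf4 and C1qc, held 46.8% of control and 12.7% of irradiated cells of the class, and its ratio was 0.42. Cluster 9, led by Ly6c2, had 52 control and 596 irradiated cells and the highest inducible level of the class, 1420 and 1357 CPM (log2 -0.07, -0.19 to 0.06). Cluster 15, led by Cxcl3 and Arg1 (59 and 407 cells), went from 230 to 551 CPM (1.26, 0.99 to 1.54). Psmb9 alone was lower in cluster 9 (-0.39, -0.66 to -0.11) and ran from 0.21 to 1.90 in clusters 0, 2, 15, 21 and 23. Psmb10 was at -0.32 in cluster 9 and ran from 0.03 to 1.92 in those others. With clusters weighted alike, the inducible ratio of the class was 0.29 in place of 0.66.

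Within keratinocyte-like clusters Psmb8 went from 5.54 to 25.4 CPM in cluster 6, led by Krt14 and Krt5, and from 3.90 to 20.8 CPM in cluster 17, led by Krt6b and Krt16. Their log2 ratios were 2.20 and 2.41, beside 1.65 in cluster 12, 1.16 in cluster 7, 0.84 in cluster 10 and 0.18 (-0.37 to 0.74) in cluster 18, led by Krt15. The control Psmb8 levels of clusters 6, 12 and 17 lie within the control sebaceous-like interval given above. Cells thinned to 10000 UMIs gave a median of 1 inducible UMI per control and 2 per irradiated mesenchymal-like cell, and the share of cells with none was 28.3% and 15.1% (2099 and 497 cells, 229 and 154 shallower ones left out). The constitutive medians of these cells were 40 and 36 UMIs. Macrophage/monocyte-like cells had medians of 4 and 8 inducible UMIs, with constitutive medians of 35 and 36, over 439 control and 1124 irradiated cells, since 1282 and 1273 shallower ones were left out.

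**Figure D4:**
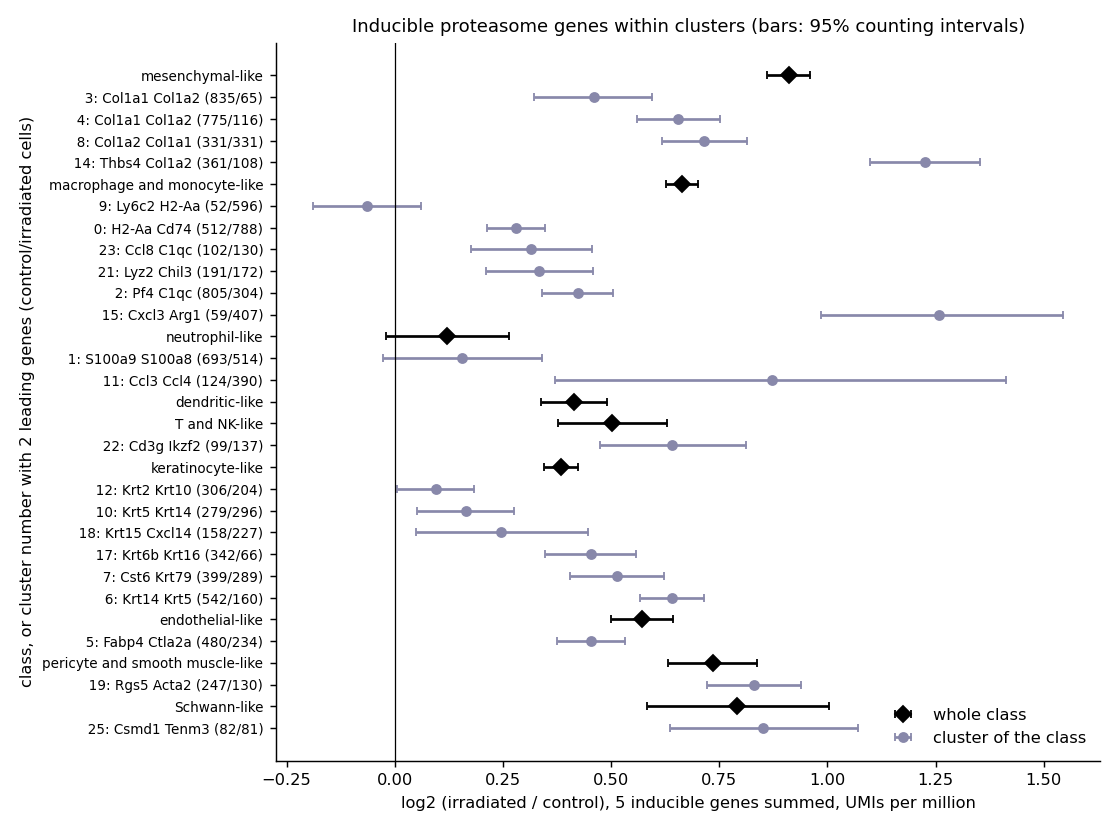
Log2 ratio of the summed inducible level, irradiated over control, for each class and its clusters with at least 50 cells in each library. Bars are 95% Poisson intervals, and the cluster labels give cell numbers (control/irradiated). The mesenchymal-like clusters shown lie to the right of 0, with cluster 14 at 1.23, and macrophage/monocyte-like cluster 9 lies at -0.07.

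Some members of the pattern have special roles or few molecules. Psme4, an activator linked to histone breakdown, was at 184 and 146 CPM in mesenchymal-like cells (log2 -0.33), and Psme3, a nuclear activator, at 33.1 and 34.1 CPM (0.05), while Psmf1, an inhibitor of the core, was at 14.2 and 13.3 CPM. None of these 3 passed the rule of size in any class. Psmb11, the beta subunit of the thymus, was the lowest member, with 29 UMIs over all barcodes. Psma8, an alpha subunit of the testis, had 121 UMIs over all barcodes, of which 30 were in 24 control and 0 in irradiated mesenchymal-like cells, at least 2.87-fold higher in the control against a floor of 3 counts.

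Psmc3ip, a recombination gene that is no proteasome subunit, was at 7.74 CPM in control and 3.84 in irradiated mesenchymal-like cells (log2 -1.01, -1.40 to -0.64). Psme2b, a copy of Psme2 whose exons overlap 9930111J21Rik1 on the same strand and whose counts are therefore uncertain, was higher by the rule in 5 classes. It went from 7.10 to 12.7 CPM in macrophage/monocyte-like, 4.43 to 10.7 in neutrophil-like, 2.04 to 9.87 in dendritic-like, 2.98 to 10.3 in endothelial-like and 0.296 to 1.32 in mesenchymal-like cells. The dendritic-like values rest on 4 control and 23 irradiated UMIs.

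Genes that work with the proteasome but lie outside the pattern resembled the constitutive members. Of 20 such partners, 0 passed the rule of size in mesenchymal-like, macrophage/monocyte-like, keratinocyte-like and pericyte/smooth-muscle-like cells in either direction. In neutrophil-like cells 6 of 20 were lower, near the 24.4% of all genes lower there, among them Ubqln2 (-1.01) and Ubqln1 (-0.90), ubiquitin shuttle genes. In T/NK-like cells 1 of 20 was lower, where 8.06% of all genes were lower. It was Nfe2l1, the transcription factor that drives proteasome genes (31.8 to 17.1 CPM, log2 -0.90, -1.68 to -0.10, 26 and 34 UMIs). Ube3c, a ubiquitin ligase bound to the proteasome, was lower in dendritic-like (-1.11) and Schwann-like cells (-0.60), and Ecpas was lower in Schwann-like cells (-0.66). These are 1 of 20 partners in dendritic-like and 2 of 20 in Schwann-like cells, beside 5.89% and 7.58% of all genes lower.

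Peptide loading genes were counted in the same way. Of 11 genes, 8 were higher in irradiated mesenchymal-like, 6 in macrophage/monocyte-like, 6 in pericyte/smooth-muscle-like, 5 in keratinocyte-like and 5 in endothelial-like cells, with medians of 0.98, 0.62, 0.76, 0.53 and 0.50. Between 6.69% and 12.9% of all genes were higher in these classes. In dendritic-like, T/NK-like and Schwann-like cells 3 were higher (medians 0.45, 0.26 and 0.53), beside 6.13%, 5.96% and 7.28% of all genes. In Schwann-like cells 10 of the 11 had enough UMIs. In neutrophil-like cells 1 was higher and 1 lower (median 0.19), where 5.03% of all genes were higher and 24.4% lower. Tap1, a subunit of the peptide transporter, went from 9.22 to 32.5 CPM in mesenchymal-like (1.82) and from 13.3 to 37.2 in keratinocyte-like cells (1.48). The general chaperones Calr, Canx and Pdia3 were not higher by the rule in any class, and Pdia3 in neutrophil-like cells (-0.95) and Calr in Schwann-like cells (-0.61) were lower.

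Among 16 interferon signalling genes, 7 of 15 with enough UMIs were higher in mesenchymal-like, 7 of 15 in macrophage/monocyte-like and 7 of 14 in Schwann-like cells, beside 12.9%, 6.69% and 7.28% of all genes. The first 2 counts include Ifnb1, with 238 of its 239 and 20 of its 21 UMIs in 1 cell. The count was 4 in each of the neutrophil-like, T/NK-like, keratinocyte-like, endothelial-like and pericyte/smooth-muscle-like classes, beside 5.03%, 5.96%, 7.41%, 9.2% and 7.85% of all genes. In dendritic-like cells it was 3, beside 6.13%. Lower were 1 gene in neutrophil-like (Ifngr1, -0.96) and 1 in T/NK-like cells (Ifngr2, -0.93), beside 24.4% and 8.06% of all genes. Nlrc5, the transactivator of class I and immunoproteasome genes, went from 2.21 to 12.1 CPM (log2 2.45) in mesenchymal-like cells, and Stat2 from 16.2 to 53.2 CPM (1.71). Irf8, a factor of myeloid cells, went from 1.63 to 7.39 CPM there (2.18), beside the leukocyte genes given above. Ifng, the gene for interferon gamma, was found almost wholly in T/NK-like cells, with 68 UMIs in 17 control cells and 212 UMIs in 65 irradiated cells (83.1 and 106 CPM).

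**Figure D5:**
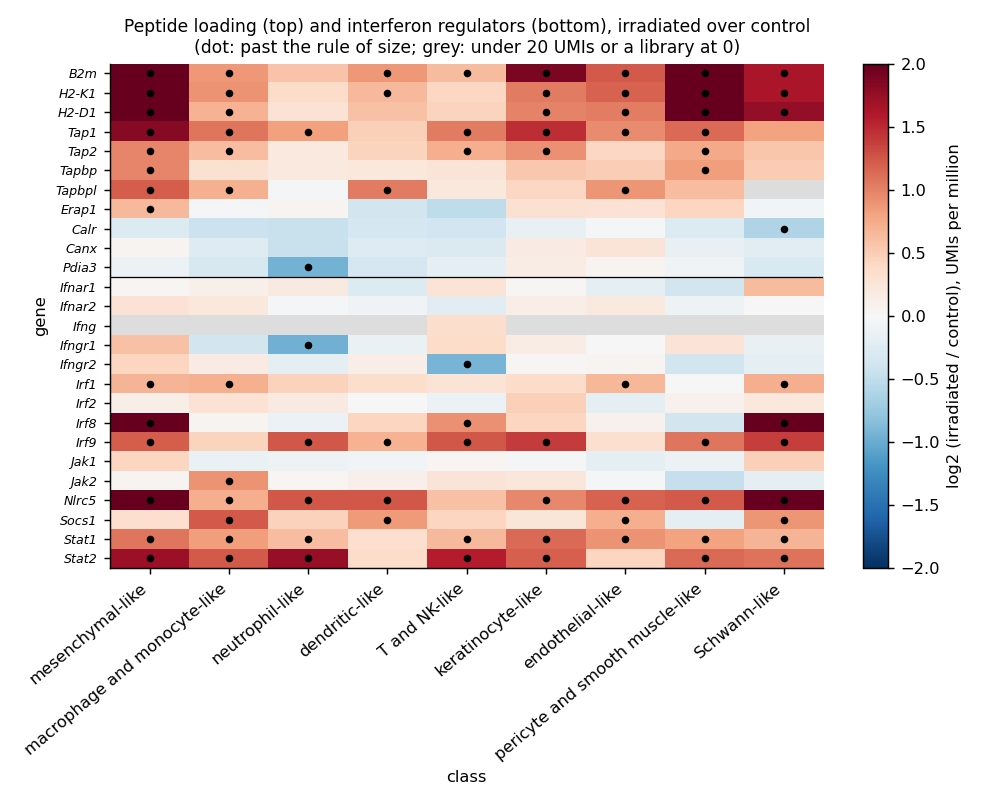
Log2 ratio of the irradiated over the control level for peptide loading genes (top) and interferon signalling genes other than Ifnb1 (bottom), by gene (rows) and class (columns), with dots for genes past the rule of size and grey for under 20 UMIs or a library at 0. Tap1 is at 1.82 and Nlrc5 at 2.45 in mesenchymal-like cells, and Pdia3 is at -0.95 in neutrophil-like cells.

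Among the genes whose levels ran most like the inducible sum over the 18 points of class and library were Irf8 (Spearman rho 0.96), Mllt6 (0.93), Tapbpl (0.90), Tyk2 (0.90), Ppp6r1 (0.89), Phf11b (0.89), Gramd4 (0.89), H2-Q7 (0.89) and Trim14 (0.89), among 13708 genes. For the constitutive sum they were Get4 (0.96), Vangl2 (0.96), Fam135a (0.95), Usp14 (0.95), Cct3 (0.95), Pfdn4 (0.95), Eif3g (0.95), Nit2 (0.94), Gfm1 (0.94) and Tsfm (0.93). The points share 2 libraries and each gene's level divides by the same class totals, so these values describe likeness only.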

How the data were processed

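The authors deposited unnormalised UMI counts for each gene and cell barcode of 10x Genomics 3′ v3 libraries, made with Cell Ranger 5.0.1 per the file headers, on mm10 per the submitters' processing notes; the authors' other filters and the strand setting are not given in the sources used here. Cells with at least 500 genes, 1000 UMIs and at most 10% mitochondrial UMIs were kept, Scrublet doublets were removed per library, and log-normalised counts (scaled to 10000, 2000 variable genes, 30 components, 15 neighbours) were clustered jointly by Leiden at resolution 1.0 (scanpy 1.11.5, Python 3.11.15). Clusters were named from 21 marker lists, and a cluster without a clear list stayed unnamed. The control library held 180080740 UMIs and the irradiated one 111753092.

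The counts were summed per class and library, and ratios have exact conditional Poisson 95% intervals. The members and the gene lists were chosen with earlier results of these data known. Genes named with values were the 5 inducible and 3 constitutive catalytic genes in every class, up to 4 other members per class past the rule of size with the widest ratio, the highest and lowest member, the members with special roles, up to 4 genes per pathway list and class, and the 10 genes most like each sum. Beyond that rule, Psmb3, Psmg1, Psmg2, Ifng and single genes of a list with values were named after their values were seen. The scripts were tested on simulated data. Alternatives were a stricter cell filter, an equal doublet threshold, other resolutions, clusters weighted alike, thinned cells, scaling by the median gene ratio, removal of cells with leukocyte UMIs, leaving out each cluster, and other minimum counts and folds. Promoter windows came from RefSeq (GRCm38.p6) and gene positions from GENCODE M21. A few values that this rule would name are not reported here.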

Additional observations from a re-analysis of the deposited data

Results flagged for a closer look

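Psmb10 was the member whose difference between libraries ran in opposite directions past the rule of size between classes, with all cells of each class summed. Its log2 ratio, irradiated over control, was 0.78 in mesenchymal-like, 0.69 in pericyte/smooth-muscle-like and 0.78 in Schwann-like cells, and -0.70 in neutrophil-like cells. The difference between these classes was not tested, since each has 1 library per group. The neutrophil-like value rests on 63 control and 89 irradiated UMIs. It was 1.61 without cluster 1, which held 83.1% of control and 40.9% of irradiated neutrophil-like cells, and the Schwann-like value was -0.23 without cells holding a leukocyte UMI.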

How the results depend on the processing

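The inducible log2 ratio of a class stayed above 0 under 96 of 97 alternatives and moved by more than its counting interval under 29 of them. The exception, in neutrophil-like cells under the stricter cell filter, was -0.0041. The inducible-over-constitutive ratio stayed above 0 under all 88 alternatives run and moved under 32. For the values that moved, given next with class names in short form, the cause was not tested. No paired analysis was possible because each group has 1 library.

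With clusters weighted alike, the inducible log2 ratio was 0.66 in mesenchymal, 0.29 in macrophage/monocyte, 0.44 in endothelial and 0.89 in pericyte/smooth-muscle. At equal weights, the inducible-over-constitutive log2 ratio was 0.57 in mesenchymal, 0.27 in macrophage/monocyte, 0.40 in keratinocyte, 0.45 in endothelial and 0.84 in pericyte/smooth-muscle. At equal weights, the control inducible share was 12.2% in mesenchymal, 53.6% in macrophage/monocyte, 7.05% in keratinocyte and 21.6% in pericyte/smooth-muscle. At equal weights, the irradiated inducible share was 19.5% in mesenchymal, 55.4% in macrophage/monocyte, 11.5% in keratinocyte and 36.2% in pericyte/smooth-muscle. At equal weights, the count of higher inducible genes was 2 in mesenchymal and 0 in macrophage/monocyte and T/NK. At equal weights, the count of higher other members was 0 in macrophage/monocyte and neutrophil. At equal weights, the count of lower other members was 9 in neutrophil and 1 in Schwann. With cells thinned to 2000 UMIs, the inducible log2 ratio was 0.37 in T/NK, 0.21 in keratinocyte, 0.70 in endothelial and 0.44 in Schwann. In thinned cells, the inducible-over-constitutive log2 ratio was 1.09 in mesenchymal, 0.59 in macrophage/monocyte, 0.40 in keratinocyte, 0.86 in endothelial, 0.82 in pericyte/smooth-muscle and 0.76 in Schwann. In thinned cells, the control inducible share was 12.9% in mesenchymal, 49.9% in macrophage/monocyte, 8.28% in keratinocyte, 40.4% in endothelial and 27.4% in pericyte/smooth-muscle. In thinned cells, the irradiated inducible share was 26.3% in mesenchymal, 59.9% in macrophage/monocyte, 52.4% in endothelial and 39.9% in pericyte/smooth-muscle. In thinned cells, the count of higher inducible genes was 2 in neutrophil, 1 in dendritic and T/NK, 5 in endothelial and 0 in Schwann. In thinned cells, the count of higher other members was 0 in mesenchymal, macrophage/monocyte, endothelial and Schwann and 2 in dendritic. In thinned cells, the count of lower other members was 1 in mesenchymal, macrophage/monocyte, dendritic and endothelial, 10 in neutrophil and 2 in pericyte/smooth-muscle. With scaling by the median gene ratio, the inducible log2 ratio was 0.78 in macrophage/monocyte and 0.46 in neutrophil. So scaled, the count of higher inducible genes was 5 in macrophage/monocyte, 2 in neutrophil and 1 in dendritic. So scaled, the count of lower other members was 6 in neutrophil and 1 in Schwann. Without cells holding a leukocyte UMI, the inducible log2 ratio was 0.32 in keratinocyte, 0.70 in endothelial and 0.23 in Schwann. In the remaining cells, the inducible-over-constitutive log2 ratio was 0.82 in pericyte/smooth-muscle and 0.53 in Schwann. In the remaining cells, the control inducible share was 7.01% in keratinocyte, 41.3% in endothelial and 21.6% in pericyte/smooth-muscle. In the remaining cells, the irradiated inducible share was 21.7% in mesenchymal, 52% in endothelial and 20.3% in Schwann. In the remaining cells, the count of higher inducible genes was 4 in endothelial and 0 in Schwann. In the remaining cells, the count of higher other members was 0 in mesenchymal. In the remaining cells, the count of lower other members was 1 in mesenchymal. Under the stricter cell filter, the inducible log2 ratio was 0.44 in keratinocyte. Under that filter, the inducible-over-constitutive log2 ratio was 0.52 in neutrophil and 0.58 in keratinocyte. Under that filter, the irradiated inducible share was 38.4% in pericyte/smooth-muscle. Under that filter, the count of higher other members was 0 in Schwann. With an equal doublet threshold, the count of lower other members was 1 in T/NK. At resolution 0.5, the control inducible share was 46.6% in macrophage/monocyte. There the irradiated inducible share was 57.2% in macrophage/monocyte. At resolution 2.0, the control inducible share was 46.3% in macrophage/monocyte. There the irradiated inducible share was 57.2% in macrophage/monocyte and 68.9% in dendritic. With a minimum of 100 UMIs, the count of higher other members was 0 in mesenchymal, neutrophil, dendritic, endothelial and Schwann. With it, the count of lower other members was 1 in mesenchymal. At 2-fold, the count of higher inducible genes was 2 in mesenchymal and pericyte/smooth-muscle and 0 in macrophage/monocyte, T/NK and endothelial. At that fold, the count of higher other members was 0 in macrophage/monocyte and Schwann. At that fold, the count of lower other members was 5 in neutrophil and 0 in pericyte/smooth-muscle and Schwann.

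The inducible log2 ratio ran from 0.72 to 1.07 in mesenchymal, 0.40 to 0.82 in macrophage/monocyte, 0.090 to 0.70 in neutrophil, 0.23 to 0.64 in T/NK, 0.27 to 0.43 in keratinocyte, 0.28 to 0.45 in endothelial and 0.83 to 1.06 in pericyte/smooth-muscle with 1 cluster of the class left out. The inducible-over-constitutive log2 ratio ran from 0.64 to 1.10 in mesenchymal, 0.38 to 0.80 in macrophage/monocyte, 0.42 to 1.13 in neutrophil, 0.26 to 0.79 in T/NK, 0.45 to 0.58 in keratinocyte, 0.44 to 0.63 in endothelial, 0.77 to 1.07 in pericyte/smooth-muscle and 0.99 to 1.21 in Schwann with 1 cluster of the class left out. The control inducible share ran from 9.27% to 11.5% in mesenchymal, 45.7% to 56.1% in macrophage/monocyte, 35.4% to 46.6% in neutrophil, 53.6% to 69% in T/NK, 6.27% to 7.23% in keratinocyte, 35.3% to 47.6% in endothelial, 3.5% to 26.3% in pericyte/smooth-muscle and 7.27% to 16.3% in Schwann with 1 cluster of the class left out. The irradiated inducible share ran from 16.3% to 25.5% in mesenchymal, 51.9% to 61.5% in macrophage/monocyte, 45.1% to 57% in neutrophil, 11.6% to 13.1% in keratinocyte, 42.3% to 61.1% in endothelial, 14.2% to 40.2% in pericyte/smooth-muscle and 25.3% to 32.1% in Schwann with 1 cluster of the class left out. The count of higher inducible genes ran from 3 to 5 in mesenchymal, 0 to 5 in macrophage/monocyte, 0 to 2 in neutrophil, 0 to 3 in T/NK, 1 to 2 in endothelial and 0 to 3 in Schwann with 1 cluster of the class left out. The count of higher other members ran from 0 to 1 in mesenchymal, 0 to 1 in macrophage/monocyte, 0 to 1 in neutrophil and 1 to 2 in Schwann with 1 cluster of the class left out. The count of lower other members ran from 1 to 2 in mesenchymal, 0 to 1 in macrophage/monocyte, 6 to 26 in neutrophil, 0 to 2 in T/NK, 0 to 4 in endothelial, 0 to 1 in pericyte/smooth-muscle and 2 to 7 in Schwann with 1 cluster of the class left out. Of the 1046 single-member values, 848 stayed within their interval, 192 moved and 6 reversed. Leaving out 1 cluster gave neutrophil-like log2 ratios from -1.02 to 0.025 for Psmc3, -0.85 to 1.61 for Psmb10, -1.76 to 0.12 for Psmd3 and -0.82 to 0.17 for Psmd2, with each reversal in the absence of cluster 1. Psmd3 in Schwann-like cells ran from -0.67 to 0.37, reversed without cluster 25, and Psmb10 there was -0.23 without cells holding a leukocyte UMI. All 6 reversed values had intervals that included equality. Few UMIs limit the neutrophil-like, Schwann-like and T/NK-like values, and no interval covers the spread between animals.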

Other observations

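Classes with fewer than 100 cells in a library were given no ratio in the report, and their values are as follows. Sebaceous-like cells (41 control and 19 irradiated cells, led by Elovl4 and Scd1) had the highest constitutive sum of the named classes, 10175 CPM in control and 9949 CPM in irradiated cells. Psmb5 stood at 504 and 498 CPM there and Psme2 at 545 and 446 CPM, while Psmb8 had 7 and 2 UMIs and Psmb9 had 4 and 1. The inducible share of the 3 catalytic pairs was 1.56% in control and 1.92% in irradiated sebaceous-like cells.

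Lymphatic endothelial-like cells (55 and 45 cells) had an inducible sum of 252 CPM in control and 648 CPM in irradiated cells. Psmb9, with 7 and 91 UMIs, went from 8.85 to 95.9 CPM in them, and the structural subunits were at 4327 and 4505 CPM.

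Ifnb1, the gene for interferon beta, had 0 UMIs in control and 239 UMIs in irradiated mesenchymal-like cells, of which 238 were in 1 cell. In macrophage/monocyte-like cells it had 0 and 21 UMIs, of which 20 were in 1 cell.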
